A study of Mus musculus with 24 samples.

Results

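The regions described here are 3010 promoter-like sites of mouse macrophages that carry RNA polymerase II (Pol II) and active promoter marks but have no H3K36me3 nearby. They were chosen by measured peaks: H3K4me3 peaks of empty vector untreated cells narrower than 4000 bp that overlapped an H3K27ac peak of those cells, overlapped a total Pol II peak of the scrambled untreated library, and had no H3K36me3 peak of any of the 4 H3K36me3 libraries overlapping or within 5000 bp. Of the 18951 H3K4me3 peaks in that list, 18398 were narrow enough, 12888 of these overlapped H3K27ac, 11182 of these overlapped total Pol II, and 3010 (15.9% of all) also lacked H3K36me3. They are called members below. Since the empty vector untreated H3K4me3 and H3K27ac lists, the scrambled untreated total Pol II list and all H3K36me3 lists chose the members, values from those libraries are given as a description.

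The data are ChIP-seq peak lists from bone marrow-derived macrophages of FVB/Hsd mice at day 7 of differentiation, which are macrophages grown in culture from marrow cells. They were transduced with a retrovirus encoding 1 short hairpin to Wdr82 (shWdr82) or with a control, and had received lipopolysaccharide (LPS, an outer membrane molecule of bacteria to which macrophages respond through TLR4) at 10 ng/ml or were untreated (UT). Libraries of H3K4me3 and H3K27ac had the empty LMP vector as control, and those of H3K4me1, total Pol II, Pol II phosphorylated at serine 2 of its tail (Ser2P) and H3K36me3 had a scrambled hairpin. By the sample titles LPS lasted 4 h in the H3K4me3 and H3K27ac libraries and 45 min in the rest, while the treatment protocol speaks of 4 h, so LPS effects were not compared between antibodies. The 24 libraries are 1 per group, so there is no spread between cultures, no test was possible, and no p-value is given. Intervals are 95% intervals that cover counting error only. A Wdr82 level, by which the knockdown could be checked, was not analysed here, nor were macrophage marker genes, since gene names could not be joined to these positions.

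H3K36me3 is laid down by SETD2, a methyltransferase that travels with elongating Pol II, so it builds up over the bodies of productively transcribed genes. Ser2P is the tail phosphorylation that accumulates as Pol II moves away from the promoter into elongation. WDR82 is a subunit of the SET1 complexes, which methylate H3 at promoters to H3K4me3, and of a PNUTS phosphatase complex, which acts in transcription termination. The series title speaks of early termination as a restraint on transcription from regulatory elements.

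In median width and share of high scores the members were close to the whole H3K4me3 list. Their median width was 1504 bp (quartiles 997 and 2149 bp, range 228 to 3986 bp), against 1994 bp in the 8172 sites that passed every other step but had an H3K36me3 peak within the distance, which are called the H3K36me3-adjacent sites. The H3K4me3 score, the authors' peak caller value, was 3100 or more in 1376 members (45.7%), against 6175 (75.6%) of the H3K36me3-adjacent sites. Over the whole empty vector untreated list the median width was 1526 bp, and 47.4% of peaks scored 3100 or more. The median gap to the nearest H3K36me3 peak was 15031 bp and the longest was 5373168 bp. Another H3K4me3 peak of the list, member or not, lay less than 5000 bp away for 857 members (28.5%), so members need not be independent sites. Members were found on all 20 chromosomes, as 12.4% of the H3K4me3 peaks of chromosome 8 up to 23.1% of those of chromosome 13. The width limit fell between chr17:28827551-28831536, a member of 3986 bp, and chr1:74758602-74762621, a region of 4020 bp that was left out. The distance limit fell between chr4:10832415-10833002, a member 5004 bp from H3K36me3, and chr4:126354091-126355866, left out at 4984 bp. All positions are on mm9 and counted from 1.

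**Figure D1:**
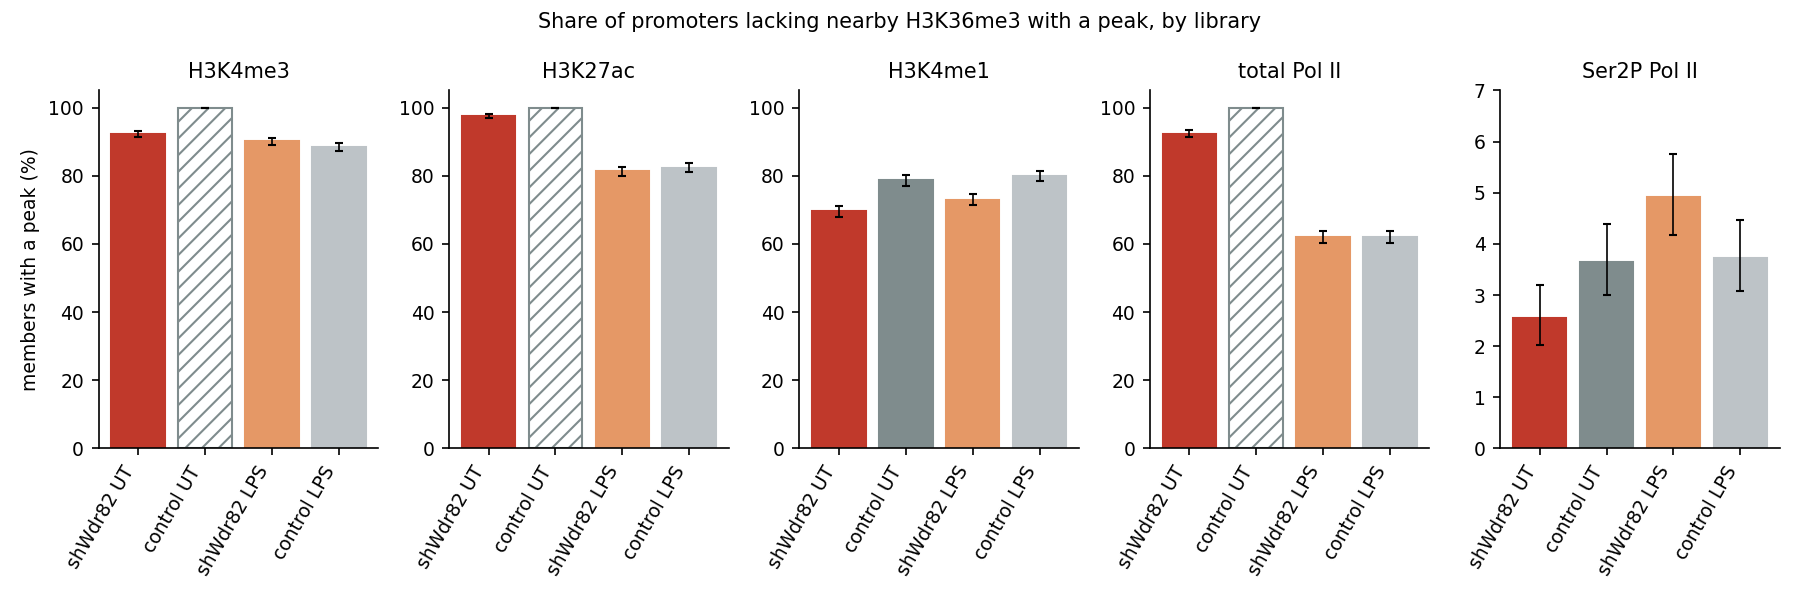
Each bar is the share of the 3010 members with a peak of the named antibody (y axis, % of members, on a 0 to 7 scale for Ser2P Pol II) in 1 library, with its exact 95% interval for counting error; hatched bars are fixed at 100% by the way members were chosen. Total Pol II was called at 62.0% of members in both LPS libraries, and Ser2P at 4.92% in the shWdr82 LPS library against 3.72% in the scrambled LPS library.

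Ser2P Pol II, the readout of elongation that did not choose the members, was called at few of them. After LPS a Ser2P peak was present at 148 members in shWdr82 cells (4.92%, exact interval 4.17 to 5.75%) and at 112 in scrambled cells (3.72%, 3.07 to 4.46%). The untreated libraries showed the opposite order, with 77 members in shWdr82 cells (2.56%, 2.02 to 3.19%) and 110 in scrambled cells (3.65%, 3.01 to 4.39%). The shWdr82 LPS library therefore stood highest of the 4 and the shWdr82 UT library lowest, while the scrambled libraries were alike. No library had a Ser2P peak at 2730 members (90.7%), against 80.8% of all 18951 H3K4me3 peaks of the list.

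The shWdr82 minus scrambled difference was 1.20 percentage points after LPS (0.461 to 1.93 points). It rested on 82 members with a peak in shWdr82 cells alone (2.72% of members, against 3.50% of all H3K4me3 peaks of the list) and 46 with a peak in scrambled cells alone (1.53%, against 2.89%). The shWdr82 share was the higher on 15 of 20 chromosomes and the lower on 3. In untreated cells the difference was -1.10 points (-1.79 to -0.405 points), from 40 members in shWdr82 cells alone (1.33%, against 1.93% of all H3K4me3 peaks) and 73 in scrambled cells alone (2.43%, against 3.61%). LPS minus UT was 2.36 points in shWdr82 cells (1.55 to 3.17 points) and 0.0664 points in scrambled cells (-0.742 to 0.874 points).

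The Ser2P peaks of the shWdr82 LPS library covered more of the genome, at 60.6 Mb against 44.7 Mb in scrambled LPS cells. When every Ser2P list was brought to an equal covered length by narrowing its peaks around their midpoints, an alternative chosen after seeing the data, the difference after LPS was 0.299 points (-0.423 to 1.02 points) and its interval held 0. The difference in untreated cells was -0.997 points (-1.68 to -0.315 points) under that setting. Such narrowing would also remove a true lengthening of Ser2P peaks, so it cannot tell that from a difference in peak calling.

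The H3K36me3-adjacent sites, where Ser2P was far more frequent, showed no such gap after LPS. There 1366 of 8172 sites had a peak in shWdr82 LPS cells (16.7%) and 1399 in scrambled LPS cells (17.1%), a difference of -0.404 points (-1.03 to 0.227 points). The members' difference exceeded this by 1.60 points (0.631 to 2.57 points). At the same covered length it did so by 2.15 points (1.19 to 3.10 points), and the H3K36me3-adjacent sites stood at -1.85 points (-2.48 to -1.22 points). In untreated cells those sites stood at -3.08 points (-3.69 to -2.48 points), and the members' difference exceeded theirs by 1.99 points (1.07 to 2.90 points). An excess over these sites was thus present without LPS too. At the 938 sites that passed the H3K4me3 width, H3K27ac and H3K36me3 steps but had no scrambled UT total Pol II peak, the shares after LPS were 4.05% in shWdr82 cells and 1.17% in scrambled cells, a difference of 2.88 points (1.66 to 4.10 points). The members' difference minus theirs was -1.68 points (-3.11 to -0.256 points). Among sites without nearby H3K36me3 the gap was thus the wider where control cells lacked a called Pol II peak. A scrambled library split these sets, and sites chosen for lacking scrambled Pol II may hold less scrambled Ser2P for that reason. This comparison is therefore a description.

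The gap after LPS lay at members with narrow H3K4me3. Of the 760 members under 1000 bp wide, 46 had a Ser2P peak in shWdr82 LPS cells (6.05%) and 21 in scrambled LPS cells (2.76%), a difference of 3.29 points (1.65 to 4.92 points). At the 1359 members of 1000 to below 2000 bp the shares were 4.34% in shWdr82 LPS cells and 2.58% in scrambled LPS cells (difference 1.77 points, 0.814 to 2.72 points). The order was the other way at the 688 members of 2000 to below 3000 bp, with 4.94% in shWdr82 LPS cells and 6.40% in scrambled LPS cells (-1.45 points, -3.11 to 0.204 points). With all 4 Ser2P lists at the same covered length the narrowest class had a difference of 2.63 points (1.05 to 4.21 points) and the 1000 to below 2000 bp class 0.957 points (0.0345 to 1.88 points), while the 2000 to below 3000 bp class stood at -2.62 points (-4.31 to -0.918 points). At the 203 members of 3000 to below 4000 bp the difference after LPS was -1.48 points (-4.37 to 1.41 points) as deposited. At the same covered length it was -2.96 points (-5.66 to -0.255 points). In untreated cells the differences, from the narrowest to the widest class, were -0.789, -0.221, -2.33 and -3.94 points, so they were lowest at wide members there too. These width classes were chosen after the shares of all members had been seen, and the widths come from a list that chose the members.

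**Figure D2:**
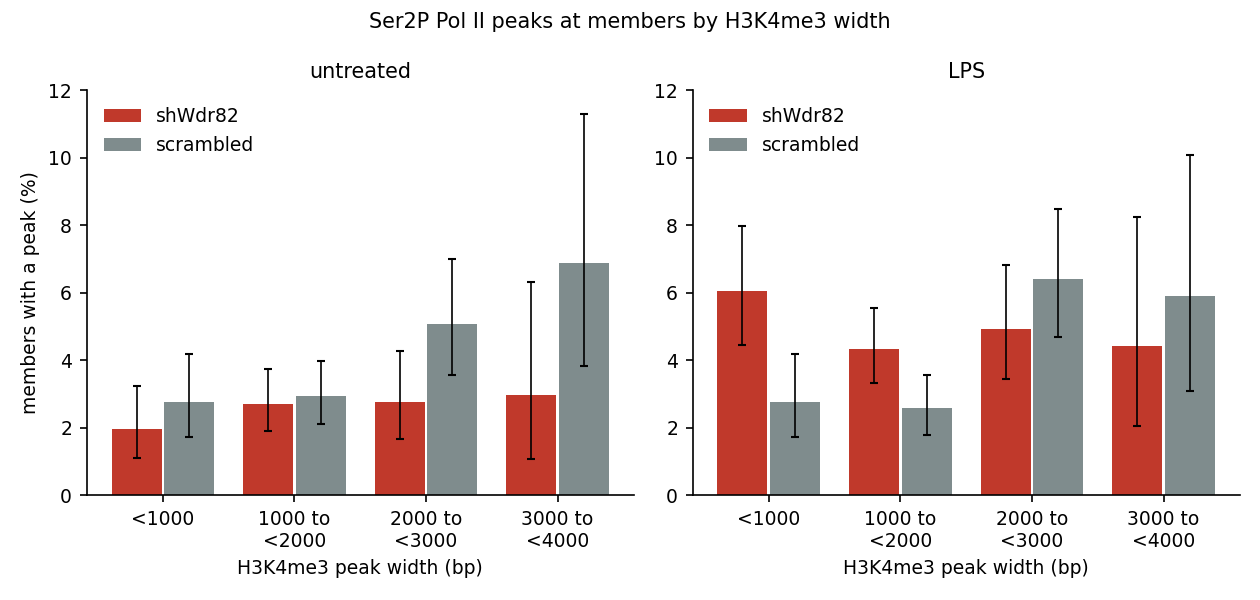
Bars give the share of members with a Ser2P Pol II peak (y axis, %) in classes of H3K4me3 width (x axis, bp) for untreated cells (left) and LPS cells (right), with shWdr82 left of scrambled in each pair and exact 95% intervals. After LPS the narrowest class stood at 6.05% in shWdr82 cells against 2.76% in scrambled cells, and the 2000 to below 3000 bp class at 4.94% against 6.40%.

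Members were also split by the total Pol II score of the scrambled UT library. After LPS, Ser2P was more frequent in shWdr82 than in scrambled cells in the 3 lower classes, with differences of 1.65 points (0.335 to 2.97 points) at scores of 50 to below 200, 2.43 points (0.866 to 4.00 points) at 200 to below 500 and 1.64 points (0.208 to 3.07 points) at 500 to below 1000. At the 1015 members with a score of 1000 or more the shares were 5.62% in shWdr82 LPS cells and 5.81% in scrambled LPS cells (difference -0.197 points, -1.64 to 1.25 points). At the same covered length the differences were 1.24 points (-0.0518 to 2.53 points), 1.82 points (0.254 to 3.39 points) and 0.984 points (-0.216 to 2.18 points) in the 3 lower classes and -1.77 points (-3.24 to -0.307 points) in the highest. The interval of the highest class then lay below 0, and those of 2 lower classes held 0. The score comes from a library that chose the members, so these classes are a description.

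Where Ser2P was called after LPS, its peaks ran farther beyond the promoter in shWdr82 cells. The reach, the length by which the Ser2P peak passes the borders of the H3K4me3 peak summed over both sides, had a median of 6186 bp in the shWdr82 LPS library (quartiles 1499 and 12930 bp, 148 members) and 1880 bp in the scrambled LPS library (677 and 6111 bp, 112 members). In untreated cells the medians were 802 bp with shWdr82 (77 members) and 1848 bp with the scrambled hairpin (110 members). A reach above 5000 bp was found at 82 members in shWdr82 LPS cells (55.4% of those with a peak), 33 in scrambled LPS cells (29.5%), 13 in shWdr82 UT cells (16.9%) and 18 in scrambled UT cells (16.4%). At the H3K36me3-adjacent sites the median reach after LPS was 3232 bp in shWdr82 cells and 2717 bp in scrambled cells. At the sites without a scrambled UT total Pol II peak it was 5202 bp in shWdr82 LPS cells (38 sites, 55.3% above 5000 bp) and 1206 bp in scrambled LPS cells (11 sites, 18.2%), so long reach in shWdr82 LPS cells was also seen there.

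Reach was also measured with the lists narrowed. At the same covered length the median reach after LPS was 2376 bp in shWdr82 cells (118 members, interval 1632 to 4383 bp) and 1763 bp in scrambled cells (109 members, 1098 to 2414 bp), and the intervals overlapped. The part of read depth in these widths was not tested.

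**Figure D3:**
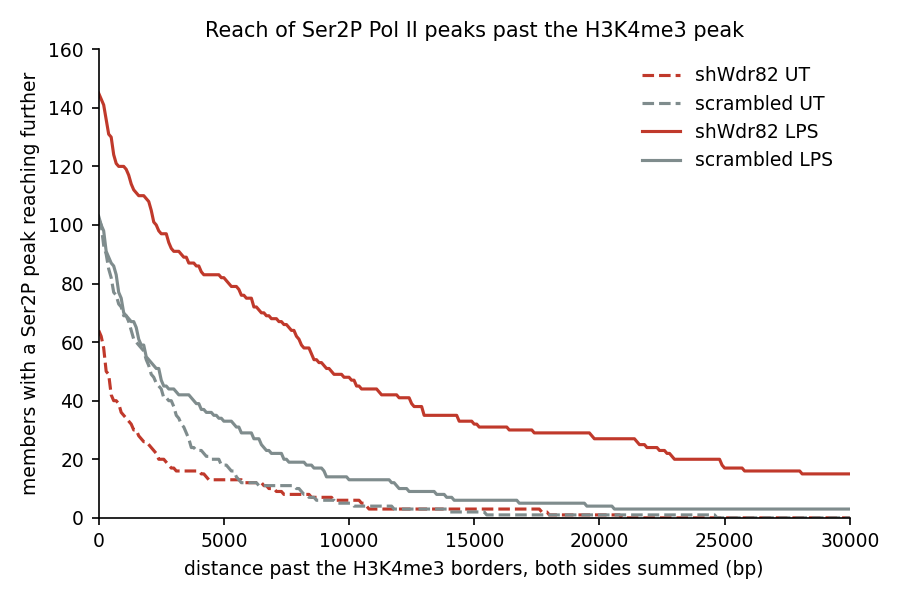
Lines give the number of members (y axis) whose Ser2P Pol II peak passed the H3K4me3 borders by more than the distance on the x axis (bp, both sides summed), in red for shWdr82 and grey for scrambled, solid for LPS and dashed for untreated cells. At 5000 bp the counts were 82 in shWdr82 LPS cells and 33 in scrambled LPS cells.

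Ser2P peaks that paired 1 to 1 at a member were mostly wider in shWdr82 cells after LPS. Over 42 pairs the median width was 4580 bp in shWdr82 LPS cells and 2770 bp in scrambled LPS cells, with a median log2 width ratio of 0.40 (quartiles 0.07 and 1.09), and 36 of 42 peaks (85.7%) were the wider in shWdr82 cells. Over all 5243 pairs of the 2 lists the median ratio was 0.13 and 64.4% were the wider in shWdr82 cells. Over 716 pairs at H3K36me3-adjacent sites it was 0.06. At the same covered length the members' ratio was -0.12 (35 pairs). That setting scales every width of a list by 1 factor, so the ratio shifts with the scaling itself. No such value was taken for the other sets of pairs. In untreated cells the members' median ratio was -0.13 (33 pairs), against -0.12 over all 6059 pairs.

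**Figure D4:**
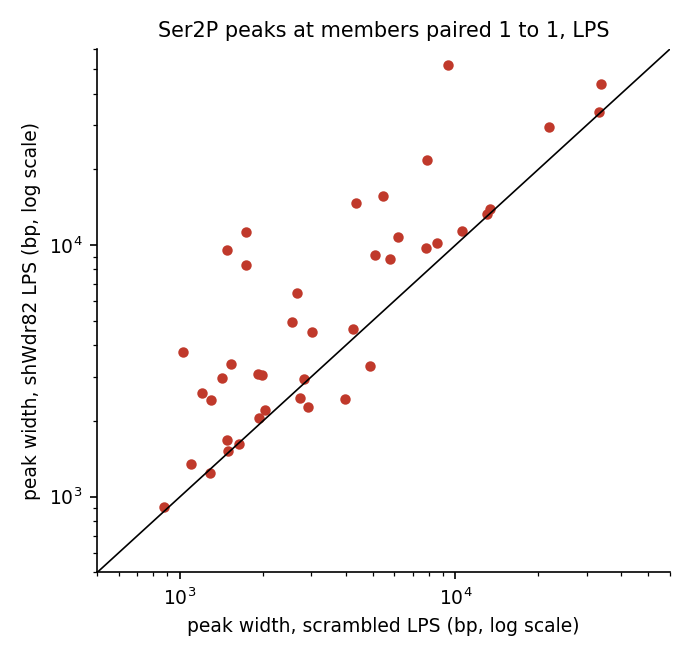
Each point is a pair of Ser2P Pol II peaks, matched 1 to 1 between the LPS libraries, that touch a member. Points are placed by peak width in shWdr82 cells (y axis, bp, log scale) and in scrambled cells (x axis, bp, log scale), and the line marks equal widths. Of the 42 points, 36 lie above the line.

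The 148 members in shWdr82 LPS cells were covered by 140 separate Ser2P peaks and the 112 in scrambled LPS cells by 109, so few peaks spanned several members. The Ser2P call passed both borders of the H3K4me3 peak at 103 members in shWdr82 LPS cells, against 40 in scrambled LPS cells. An H3K36me3 peak of the same vector and treatment was touched by 20 of the 140 peaks (14.3%) in shWdr82 LPS cells and by 9 of the 109 (8.26%) in scrambled LPS cells. Another H3K4me3 peak was touched by 12.1% of the shWdr82 LPS peaks and by 5.50% of the scrambled LPS peaks. The choice of members, which keeps H3K36me3 peaks at a distance, lowers the contact with H3K36me3 in both libraries.

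A Ser2P peak was held by both shWdr82 libraries, and by neither scrambled one, at 11 members (0.365%, against 0.369% of all H3K4me3 peaks), and the reverse at 9 members (0.299%, against 0.670%). The crossed patterns, which follow no factor of the design, held 7 members (scrambled UT with shWdr82 LPS, 0.233% against 0.264%) and 1 member (shWdr82 UT with scrambled LPS, 0.0332% against 0.127%). The members that lead the first list by score are described here. At chr2:116800293-116802594 the Ser2P score was 1438 in shWdr82 UT and 3100 in shWdr82 LPS cells, with peaks of 12298 and 46227 bp, and the nearest scrambled peak lay 248 bp away, so the scrambled lists do hold Ser2P next to this site. At chr9:40538607-40539952 the scores were 366 in shWdr82 UT and 1501 in shWdr82 LPS cells, and no scrambled peak lay nearer than 73153 bp. At chr2:75629931-75630361, an H3K4me3 peak of only 431 bp, the scores were 101 in shWdr82 UT and 3100 in shWdr82 LPS cells, and the LPS peak was 13364 bp wide. The nearest scrambled Ser2P peak lay 8963 bp away. Total Pol II was not called at this site in shWdr82 LPS cells, though it was in scrambled LPS cells.

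The leading member of the reverse list, chr14:21459190-21461657, had Ser2P scores of 350 in scrambled UT and 254 in scrambled LPS cells, with no shWdr82 peak within 30639 bp.

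A Ser2P peak in both LPS libraries and in neither untreated library was found at 41 members (1.36%, against 1.47% of all H3K4me3 peaks). The members that lead it scored 3100 in both vectors or nearly so and differed in width. At chr2:34820965-34821489 the peak was 48679 bp wide in shWdr82 LPS cells and 12131 bp in scrambled LPS cells, both at a score of 3100. At chr11:83475853-83478198 it was 50189 bp wide in shWdr82 LPS cells and 19090 bp in scrambled LPS cells. At chr8:91220110-91222223 it was 10165 bp in shWdr82 LPS cells and 8586 bp in scrambled LPS cells. All 3 lay 5762 to 7277 bp from the nearest H3K36me3 peak, close to the distance limit. The opposite pattern, both untreated libraries and neither LPS library, held 14 members (0.465%, against 1.59%).

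Only 12 members (0.399%, against 5.58% of all H3K4me3 peaks) had a Ser2P peak in all 4 libraries. The first of them by lowest score, chr17:46992317-46996035, had Ser2P scores of 1706 in shWdr82 UT, 3209 in scrambled UT, 2979 in shWdr82 LPS and 3100 in scrambled LPS cells, and its peaks kept widths of 7439 to 9764 bp.

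Total Pol II, measured in separate libraries, was wider after LPS in shWdr82 cells at the members where Ser2P was called in those cells alone. Of the 82 members with Ser2P in shWdr82 LPS and not in scrambled LPS cells, 59 had a total Pol II peak in shWdr82 LPS cells (72.0%) and 56 in scrambled LPS cells (68.3%). The total Pol II width, summed where several peaks touched a member, had a median of 7744 bp in shWdr82 LPS cells and 2788 bp in scrambled LPS cells. The peaks passed the H3K4me3 borders by a median of 6235 bp in shWdr82 LPS cells and 1470 bp in scrambled LPS cells. Over the 49 members of this class with a total Pol II peak in both LPS libraries the median log2 ratio of summed widths, shWdr82 over scrambled, was 0.71 (quartiles 0.17 and 1.50). In 41 of 49 the summed width was the larger in shWdr82 cells. This measure differs from the ratio of peaks paired 1 to 1. The total Pol II lists covered 94.2 Mb in shWdr82 LPS and 89.2 Mb in scrambled LPS cells. With these lists at the same covered length the ratio was 0.63 (quartiles 0.09 and 1.42), and 40 of 49 were the wider in shWdr82 cells.

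The other classes of members differed from this. The 66 members with Ser2P in both LPS libraries had a total Pol II ratio of 0.43 (39 of 54 wider in shWdr82 cells). The 46 members with Ser2P in scrambled LPS cells alone had a ratio of 0.07 (19 of 35), and the 2730 members with no Ser2P peak in any library a ratio of -0.03 (698 of 1525, 45.8%). At the same covered length these ratios were 0.32, -0.01 and -0.11. The 82 members also had weak H3K4me3, with a median width of 1242 bp and a median score of 383, against 2288 bp and 3100 for the 46 members of the reverse class. These classes were formed from the Ser2P lists, so only their total Pol II values are a separate measurement. No test of the difference between classes was run.

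At the members as a whole, total Pol II after LPS was called equally often in both vectors. A peak was called at 1865 members in shWdr82 LPS cells (62.0%) and at 1866 in scrambled LPS cells (62.0%), a difference of -0.0332 points (-1.16 to 1.09 points), from 148 members (4.92%, against 4.68% of all H3K4me3 peaks) with shWdr82 alone and 149 (4.95%, against 3.46%) with scrambled alone. Counting only peaks that scored at least 100, the difference was 2.13 points (0.960 to 3.29 points). The median log2 width ratio of 1434 pairs was -0.04 (-0.05 to -0.02). A reach above 5000 bp was nevertheless found at 268 members in shWdr82 LPS cells (14.4% of those with a peak) and at 187 in scrambled LPS cells (10.0%), while the median reach was 377 bp in shWdr82 LPS cells and 454 bp in scrambled LPS cells. The typical peak was thus slightly narrower in shWdr82 cells, while long peaks were more frequent there. At the same covered length the width ratio was -0.11 and the median reach was 319 bp in shWdr82 LPS cells and 454 bp in scrambled LPS cells. Before LPS, 2779 members (92.3%) had a peak in shWdr82 UT cells, beside the 100% that the choice of members fixes in scrambled UT cells.

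Total Pol II calls were lost with LPS at many members. In shWdr82 cells the share was 62.0% with LPS and 92.3% untreated, a difference of -30.4 points (-32.2 to -28.6 points), against -11.9 points at the H3K36me3-adjacent sites. The members also started from weaker peaks, with a median scrambled UT total Pol II score of 572 against 1083 at the H3K36me3-adjacent sites. The sets were not matched for this score. A peak in both untreated libraries and in neither LPS library was found at 839 members (27.9%), against 11.4% of all H3K4me3 peaks and 11.4% of the H3K36me3-adjacent sites. The scrambled UT list chose the members, so part of any loss relative to it follows from that choice. The whole LPS lists were also shorter, with 22307 peaks in shWdr82 LPS against 28497 in shWdr82 UT and 21891 in scrambled LPS against 32385 in scrambled UT cells. The leading member of this pattern, chr10:127935924-127937082, had total Pol II scores of 3100 in shWdr82 UT and scrambled UT cells, over peaks of 14061 and 14148 bp, and the nearest LPS peak lay 3968 bp away. At chr14:65961811-65962575 the scores were 2851 in shWdr82 UT and 2991 in scrambled UT cells, and no LPS peak lay within 244293 bp.

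Retention of total Pol II after LPS followed its strength in untreated scrambled cells. In classes of scrambled UT score from 50 to below 200, 200 to below 500, 500 to below 1000 and 1000 or more, the shares with a peak were 30.1%, 50.3%, 68.2% and 88.6% in shWdr82 LPS cells and 25.4%, 49.5%, 70.8% and 90.9% in scrambled LPS cells. The shWdr82 share was the higher in the weakest class, by 4.68 points (2.11 to 7.24 points), and the lower in the strongest, by -2.36 points (-3.83 to -0.901 points). The classes rest on a scrambled library, which also chose the members, so they are a description.

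**Figure D5:**
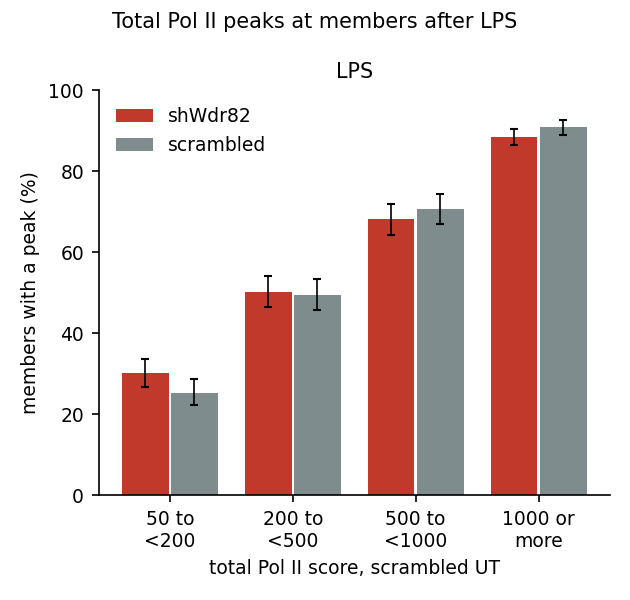
Bars give the share of members with a total Pol II peak after LPS (y axis, %) in classes of the scrambled UT total Pol II score (x axis), with shWdr82 left of scrambled and exact 95% intervals. The shares ran from 30.1% to 88.6% in shWdr82 cells and from 25.4% to 90.9% in scrambled cells.

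A total Pol II peak in both control libraries and in neither shWdr82 library was found at 13 members (0.432%, against 0.422% of all H3K4me3 peaks). At the leading one, chr11:118006963-118008129, the total Pol II score was 2697 in scrambled UT and 1285 in scrambled LPS cells, and the nearest shWdr82 peak was 20973 bp away, although the shWdr82 UT library held a Ser2P peak there. The member with the highest lowest score over the 4 libraries, chr1:46908964-46911740, was at 3100 in each, with widths of 7912 bp in shWdr82 UT, 7428 bp in scrambled UT, 9374 bp in shWdr82 LPS and 8185 bp in scrambled LPS cells.

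H3K4me1, a methylation found at enhancers and on the flanks of promoters, was called less often in shWdr82 cells under both treatments. In untreated cells 2094 members had a peak with shWdr82 (69.6%) and 2366 with the scrambled hairpin (78.6%), a difference of -9.04 points (-10.5 to -7.62 points). After LPS the counts were 2194 (72.9%) with shWdr82 and 2408 (80.0%) with the scrambled hairpin, a difference of -7.11 points (-8.47 to -5.75 points). The shWdr82 share was the lower on all 20 chromosomes in untreated cells and on 19 after LPS. The gap was wider at the H3K36me3-adjacent sites, at -12.8 points in untreated and -11.3 points in LPS cells, and the members' difference was smaller by 3.80 points (2.11 to 5.49 points) in untreated cells and by 4.17 points (2.55 to 5.79 points) after LPS. At the sites without a scrambled UT total Pol II peak the gap was narrower than at the members, at -3.20 points in untreated and -1.81 points in LPS cells.

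The H3K4me1 call was absent from both shWdr82 libraries and present in both scrambled libraries at 104 members (3.46%, against 4.94% of all H3K4me3 peaks), and the reverse held at 22 (0.731%, against 1.00%). The crossed patterns held 29 members (scrambled UT with shWdr82 LPS, 0.963% against 0.950%) and 20 members (shWdr82 UT with scrambled LPS, 0.664% against 0.955%). A peak with shWdr82 alone was called at 113 members in untreated cells (3.75%, against 5.11% of all H3K4me3 peaks) and 118 after LPS (3.92%, against 4.59%). With the scrambled hairpin alone it was called at 385 members in untreated cells (12.8%, against 13.8%) and 332 after LPS (11.0%, against 12.6%). The lower share with shWdr82 was thus not particular to the members. The H3K4me1 peaks covered 45.2% of the members' length in shWdr82 UT and 48.8% in scrambled UT cells, and 49.7% in shWdr82 LPS and 52.4% in scrambled LPS cells. At chr11:17058460-17060998, which leads the 104, the scores were 1520 in scrambled UT and 1368 in scrambled LPS cells, over peaks of 7956 and 8172 bp, and a shWdr82 peak lay 1343 bp away. At chr6:124853740-124854356, which leads the 22, the scores were 770 in shWdr82 UT and 1649 in shWdr82 LPS cells, and a scrambled peak lay 19 bp away. At both sites the lists without a call held H3K4me1 close by.

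H3K4me3 itself, the product of the SET1 complexes, was retained at most members. In untreated cells 2778 members (92.3%) kept an H3K4me3 peak with shWdr82, beside the 100% fixed in empty vector cells, and over 2463 pairs the peaks were narrower by a median log2 ratio of -0.19, as over all 15236 pairs of the lists (-0.19). After LPS the shares were 90.1% with shWdr82 and 88.5% with the empty vector, a difference of 1.56 points (0.604 to 2.52 points), with 132 members (4.39%, against 4.11% of all H3K4me3 peaks) in shWdr82 cells alone and 85 (2.82%, against 2.99%) in empty vector cells alone. At the H3K36me3-adjacent sites the difference was -1.71 points (-2.14 to -1.29 points), so that the members stood 3.27 points (2.23 to 4.32 points) above them. At the sites without a scrambled UT total Pol II peak it was 5.86 points, and the members' difference minus theirs was -4.30 points (-7.17 to -1.43 points). With each H3K4me3 list cut to its top-scoring peaks, as many as the shortest list holds, the members' difference was 0.0332 points.

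Loss of the H3K4me3 call from both shWdr82 libraries, with both empty vector libraries holding it, was seen at 49 members (1.63%, against 2.01% of all H3K4me3 peaks). The leading one, chr7:133767340-133769951, had scores of 1099 in empty vector UT and 2313 in empty vector LPS cells and no shWdr82 H3K4me3 peak within 22352 bp, while H3K27ac and H3K4me1 were called there in all 4 of their libraries. At chr5:114098448-114101073 the scores were 988 in empty vector UT and 1511 in empty vector LPS cells, with no shWdr82 peak within 83965 bp. At chr5:97349166-97350617 a shWdr82 peak lay 2546 bp away. The peaks that both vectors held after LPS were not narrower with shWdr82, with a median log2 width ratio of 0.04 over 2370 pairs.

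H3K27ac, the acetylation of active promoters and enhancers, was called at 81.3% of members with shWdr82 and 82.4% with the empty vector after LPS, a difference of -1.10 points (-1.98 to -0.212 points), from 76 members (2.52%, against 1.99% of all H3K4me3 peaks) in shWdr82 cells alone and 109 (3.62%, against 3.14%) in empty vector cells alone. The H3K36me3-adjacent sites had -1.43 points, and the difference between the sets was 0.335 points (-0.674 to 1.35 points). With members chosen on the shWdr82 untreated lists in place of the control ones, shWdr82 minus control was 0.127 points (-0.752 to 1.00 points). In untreated shWdr82 cells the share was 97.6%, so LPS minus UT in shWdr82 cells was -16.3 points (-17.7 to -15.0 points), against -9.77 points at the H3K36me3-adjacent sites and -26.0 points at the sites without a scrambled UT total Pol II peak. An H3K27ac peak in both untreated libraries and in neither LPS library was found at 406 members (13.5%, against 7.03% of all H3K4me3 peaks). The empty vector UT list chose the members, which raises this share relative to all H3K4me3 peaks. Among sites held to the same H3K27ac step, the pattern was found at 6.96% of the H3K36me3-adjacent sites and 25.5% of the sites without a scrambled UT total Pol II peak, so the members lay between them. The median empty vector UT H3K27ac score was 1443 at the H3K36me3-adjacent sites, 938 at the members and 234 at the sites without that Pol II peak. The sets were not matched for it. At chr5:91200625-91202435, which leads the 406 members, both untreated libraries were at a score of 3100. Their peaks were 9218 bp wide with shWdr82 and 7581 bp with the empty vector, and the nearest LPS peak lay 10296 bp away.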

How the data were processed

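Each of the 24 libraries (6 antibodies, 2 vectors, with and without LPS) came as a list of peaks. Bowtie 0.12.7, MACS 1.4 and the mm9 build are named in the submitters' processing notes. The deposited score of each peak is the authors' peak caller value, from 50 to 3233 with many at 3100. The start and end columns of the deposited lists are other values, set by the authors' peak calling. Peaks were called library by library. Read depth and input were not given in the sources used here. A missing peak thus need not be absence of signal.

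A member held a peak if it shared at least 1 bp. Shares have exact (Clopper-Pearson) 95% intervals and differences at the same members paired Wald intervals. Wald intervals between sets treat members as independent. Medians of width and reach were judged by their order-statistic 95% intervals. Python 3.11.15, numpy 2.4.6, pandas 2.3.3 and scipy 1.17.1 were used, and the overlap code was checked on simulated regions. The members, lists and classes were chosen with earlier results of these data known. The sites named are up to 3 per pattern, ranked by the lower of the scores that put them in it, ties by position. No mm9 genome or gene annotation was used, so no gene names or sequences are given. Percentages "of all H3K4me3 peaks" are the same call over the 18951 peaks of the empty vector untreated list.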

Additional observations from a re-analysis of the deposited data

Results flagged for a closer look

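As deposited, the Ser2P Pol II differences between the shWdr82 and scrambled libraries had opposite signs in untreated and LPS cells. The difference in share of members with a Ser2P peak, shWdr82 minus scrambled, was 1.20 points in LPS cells and -1.10 points in untreated cells. Of all 18951 H3K4me3 peaks, 3.50% had a Ser2P peak in shWdr82 LPS cells alone and 2.89% in scrambled LPS cells alone. In untreated cells these shares were 1.93% with shWdr82 alone and 3.61% with scrambled alone. The opposite signs of the share difference were thus not particular to the members. The median log2 width ratio of paired Ser2P peaks at members, shWdr82 over scrambled, was 0.40 in LPS cells (0.12 to 0.84) and -0.13 in untreated cells (-0.45 to 0.08), where the interval held 0. With 1 library in each group neither contrast between treatments was tested. The median width of all Ser2P peaks had the same order, at 2496 bp in shWdr82 LPS and 1812 bp in scrambled LPS cells, and 1550 bp in shWdr82 UT and 1921 bp in scrambled UT cells. With the lists at the same covered length the width ratios were -0.12 in LPS cells and -0.03 in untreated cells. The share difference in LPS cells was then 0.299 points (-0.423 to 1.02 points), so opposite signs beyond counting error were not seen under that setting. The setting would also remove a true lengthening of Ser2P peaks, so it does not decide between that and peak calling.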

How the results depend on the processing

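The 8 alternative settings gave 237 values, of which 197 stayed within the 95% interval of the reported value (for counts, within 1.5 times), 34 moved further and 6 changed sign. A limit of 3000 bp on H3K4me3 width, an overlap of at least 200 bp and counting peaks within 500 bp moved none. No paired analysis was possible because each group has 1 library, so no replicate could be left out either.

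Ser2P shares after LPS depended on the covered length, a setting chosen after seeing the data. With each list narrowed to the same covered length, Ser2P shWdr82 minus scrambled in LPS cells was 0.299 points, LPS minus UT in shWdr82 cells 1.36 points, the Ser2P width ratio after LPS -0.12 and the shWdr82 LPS reach 2376 bp. Under that setting the width ratios were 0.07 for H3K27ac after LPS (-0.08 as deposited), 0.05 for H3K4me1 in untreated cells (-0.02 as deposited) and 0.04 after LPS, and -0.11 for total Pol II after LPS, and total Pol II reach was 319 bp in shWdr82 LPS and 293 bp in shWdr82 UT cells. These shifts follow from the scaling itself.

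With only peaks scoring at least 100, Ser2P reach was 1988 bp in shWdr82 UT, 3021 bp in scrambled UT, 8051 bp in shWdr82 LPS and 3810 bp in scrambled LPS cells, total Pol II reach was 474 bp in shWdr82 LPS and 578 bp in scrambled LPS cells, and Ser2P was in both shWdr82 lists alone at 6 members. Differences in share were then 2.13 points for total Pol II and 2.79 for H3K4me3 (shWdr82 minus control, LPS), -11.8 for H3K4me1 (untreated), and, for LPS minus UT in shWdr82 cells, -19.7 for H3K27ac and 5.05 for H3K4me1. With each list cut to its top-scoring peaks, as many as the shortest list of the antibody holds, LPS minus UT was 0.432 points for H3K4me3 (-2.19 as deposited), -14.4 for H3K27ac and -25.5 for total Pol II in shWdr82 cells and -1.16 for H3K4me1 in scrambled cells, and shWdr82 minus control after LPS was 0.0332 for H3K4me3 and -5.38 for H3K4me1. With members chosen on the shWdr82 untreated lists (3156 sites, overlapping 2534 of the 3010 members), shWdr82 minus control after LPS was 0.127 points for H3K27ac (-1.10 as chosen) and 3.64 for H3K4me3, and LPS minus UT in shWdr82 cells was -19.4 for H3K27ac, -6.31 for H3K4me3 and -37.4 for total Pol II. At an H3K36me3 distance of 10000 bp (2005 members) the last was -33.1 points, total Pol II reach in shWdr82 LPS cells 450 bp and the H3K4me3 width ratio after LPS 0.06. Beyond the scaling, the cause was not tested.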
